A study of Homo sapiens with 8 samples.

Results

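All 309 peaks that the deposited RBPMS eCLIP peak lists place on the mitochondrial chromosome are described here, out of 194003 listed peaks. They were chosen by position alone, with no measured value. The lists of libraries 1, 2, 3 and 4 hold 55, 119, 56 and 79 of them. The peaks were divided by strand and by position into an rRNA part from base 648 to base 3230, a coding and tRNA part from there to base 16030, and a control region that takes in the rest. The rRNA part held 135 peaks, the coding and tRNA part 172 and the control region 2, and both peaks of the control region lay in a tRNA gene.

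eCLIP crosslinks proteins to RNA with ultraviolet light, precipitates 1 protein with an antibody and sequences the RNA that comes with it. The series holds 4 eCLIP libraries made with an antibody against RBPMS, and 4 input libraries made from the lysate without an antibody. Every library came from wild-type cells of HUES6, a widely used human embryonic stem cell line. The cells were grown in FTDA medium, labelled as control-treated and irradiated with 400 mJ/cm2 in dishes of about 20M cells. The labels give no library with an unrelated antibody, no RBPMS-deficient cells and no statement that the 4 libraries came from separate cultures, and the identity of the cells was not checked against marker genes here. The p-values therefore measure only the spread between these libraries, which may be technical.

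Human mitochondria transcribe both strands of a small circular genome into long precursors that are cut into mature RNAs, with tRNAs marking many of the cutting points. That genome holds 2 rRNA genes, 22 tRNA genes and 13 protein-coding genes, all for subunits of the respiratory chain and ATP synthase. The minus strand of the reference is the sense strand of 9 genes, ND6 and 8 tRNAs, and the plus strand that of the others. RBPMS binds RNA through an RNA recognition motif and is known from the nucleus and cytoplasm, where it regulates splicing and other steps of mRNA processing. Ribosomal and mitochondrial transcripts are abundant, so they appear in eCLIP inputs too, and a peak is read against its input.

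Each deposited peak carries a log2 fold of the immunoprecipitated over the input read share and a −log10 p, so a log2 fold below 0 means a peak with a smaller share of reads in the immunoprecipitation than in the input. From these values the library totals were worked out as 712946, 4179715, 786811 and 1415946 immunoprecipitated reads in libraries 1 to 4, against 2264083, 4359636, 1669624 and 2062734 input reads. The totals of library 4 carry a common factor of 6 that rests on the p-values alone: 508 of 4103 tried peaks matched it, against 220 for the next best factor. Read levels of library 4 scaled to its totals depend on that factor, and its log2 folds do not. Read numbers were settled exactly for 85 of the 309 mitochondrial peaks, and for the others the numbers below are the smallest that the values allow. Intervals are exact 95% binomial intervals from these read numbers, widest where only the smallest is known, and they cover counting error only. Libraries 3 and 4 agreed in their immunoprecipitated reads within sampling noise over 367 nuclear peaks (chi-square per degree of freedom 1.07, p = 0.174), whereas the other 5 pairs had 6.34 to 12.5. Their inputs differed over 48 peaks (chi-square per degree of freedom 2.92, p = 9.38e-11). Libraries 3 and 4 were counted as 1 sample, which leaves n = 3.

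The first comparison asks how mitochondrial peaks stand against nuclear peaks of the same library. Mitochondrial peaks had lower folds over input than nuclear peaks in all 4 libraries. Their median log2 fold was −1.36 in library 1, against 3.25 for nuclear peaks. It was −0.16 in library 2, against 1.06 for nuclear peaks. Library 3 had −0.29 for mitochondrial and 2.67 for nuclear peaks, and library 4 had 0.26 for mitochondrial and 2.13 for nuclear peaks. The difference, mitochondrial minus nuclear, averaged −2.75 ± 1.72 on the log2 scale (SD, n = 3), and every library showed the same sign. Without library 1 it averaged −1.82. The median nuclear peak held few reads, as given below, and at such read numbers a fold can take few values. Every fold also scales with the input total over the immunoprecipitated total. That ratio was 3.18, 1.04, 2.12 and 1.46 in libraries 1 to 4, and the nuclear medians had the same order. The ratio applies to both kinds of peak of a library alike, so it cancels in their difference. How far the size of each difference rests on small nuclear read numbers was not tested. The exact two-sided sign-flip permutation test gave p = 0.25, the smallest that 3 samples allow, so this design could not pass 0.05.

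Of the mitochondrial peaks, 3.64%, 42.9%, 48.2% and 60.8% lay above input in libraries 1 to 4. Nuclear peaks lay above input in 97.4%, 84.5%, 95.8% and 92.7%, and all peaks of the lists in 97.2%, 84.4%, 95.7% and 92.6%. The difference averaged −58.4 ± 30.6 percentage points (SD, n = 3; exact permutation p = 0.25), with the same sign in every library. The 2 kinds of peak differ in depth: the median mitochondrial peak held 14, 254, 27 and 37 immunoprecipitated reads in libraries 1 to 4, and the median nuclear peak 4, 4, 3 and 4. How far such small read numbers set the nuclear share above input was not tested. Among peaks with at least 20 immunoprecipitated reads, a limit chosen after seeing the data, the median difference was larger, at −4.56 ± 1.58, and the share above input differed by −54.3 ± 34.3 points. That limit acts on the numerator of the fold, and under it the nuclear medians rose to 4.48, 3.06, 5.01 and 4.83 in libraries 1 to 4. The mitochondrial medians became −1.77, −0.07, 0.79 and 0.47. The limit is thus no correction for depth, and for many mitochondrial peaks it used the smallest read numbers. The labels' description codes put libraries 1 and 2 in 1 set and libraries 3 and 4 in another; within the first set the median differences were −4.61 and −1.23, and within the second −2.96 and −1.87.

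**Figure D1:**
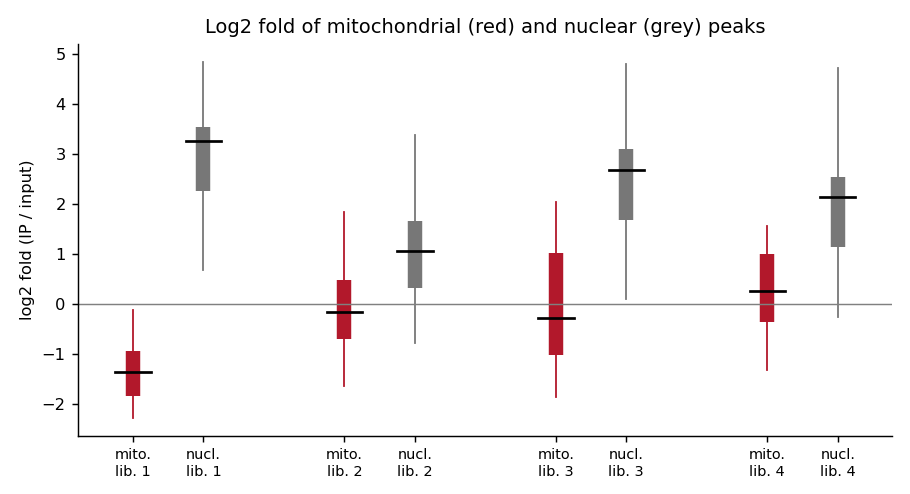
Log2 fold over input of mitochondrial peaks (left box of each pair) and nuclear peaks (right box) in each eCLIP library. Boxes run from the 25th to the 75th percentile with the median marked, and lines run from the 5th to the 95th. The mitochondrial medians lie between −1.36 and 0.26, each below the nuclear median of its library.

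Few mitochondrial peaks passed strict thresholds. At a log2 fold of at least 3 and a −log10 p of at least 3, the background share of all listed peaks was 15.9%, 5.38%, 12.6% and 12.7% in libraries 1 to 4. Mitochondrial peaks passed in library 2 alone, 3 of 119 or 2.52%, and all 3 lie in tRNA genes. At a log2 fold of at least 1 with the same p, the background was 18.2%, 7.37%, 13.7% and 14%, and 0, 11, 14 and 19 mitochondrial peaks passed. That is 9.24% of the mitochondrial peaks in library 2, 25% in library 3 and 24.1% in library 4. Of these 44 peaks, 34 lie in RNR2, 6 in tRNA genes, 3 in protein-coding genes and 1 in RNR1.

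**Figure D2:**
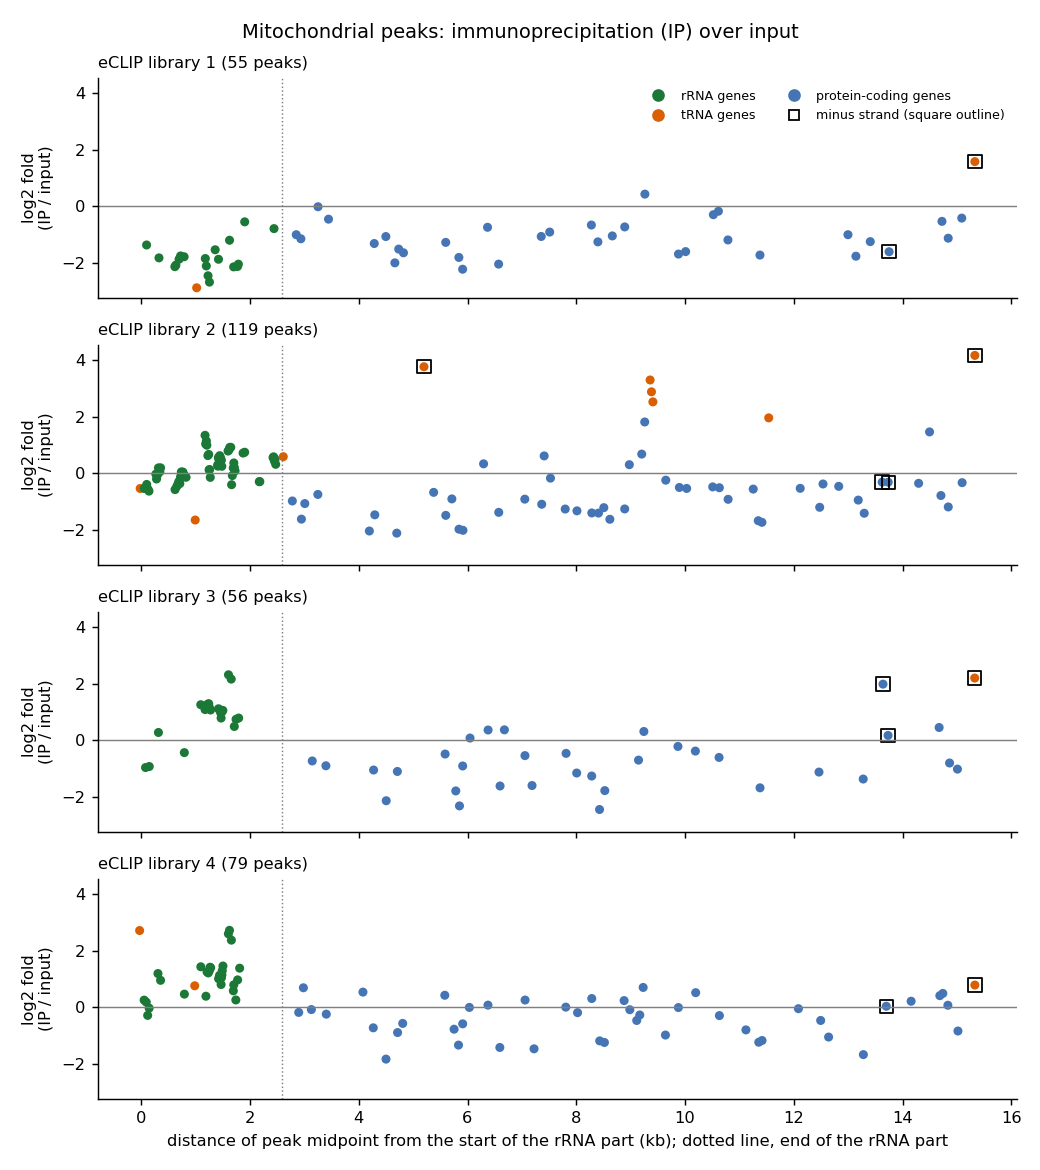
Log2 fold over input of all 309 mitochondrial peaks against distance from the start of the rRNA part, 1 panel per library, with plus-strand and minus-strand peaks in separate symbols. The dotted vertical line marks the end of the rRNA part, and the solid horizontal line marks the input level. Peaks of the rRNA part lie below the input level in library 1 and mostly above it in libraries 3 and 4. Most peaks of the coding and tRNA part lie below it.

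The 2 mitochondrial rRNAs are the RNA core of the mitochondrial ribosome, RNR1 in its small subunit and RNR2 in its large subunit. All 135 peaks of the rRNA part were on the plus strand, the sense strand of both genes. In libraries 1, 2, 3 and 4, 0 of 20, 38 of 61, 19 of 22 and 30 of 32 of them lay above input. The interval of the fold lay above 0 for 82 of the 135, below 0 for 39 and across it for 14. The part was therefore below input in library 1 and largely above it in libraries 3 and 4. Many of these peaks abut: 4, 48, 12 and 21 of them begin at the base after the preceding peak's end, and neighbours of this kind share reads, as a 2-base peak at 1822 to 1823 of library 2 with 4193 immunoprecipitated reads shows. Counts of rRNA peaks are thus not counts of separate sites.

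RNR2 held 91 peaks, of which 0 of 12, 32 of 37, 18 of 18 and 24 of 24 lay above input in libraries 1 to 4. Its median log2 fold was −1.95, 0.49, 1.09 and 1.24 in libraries 1 to 4, a mean of −0.10 ± 1.64 (SD, n = 3). The spread between samples was thus larger than the mean, whose sign rests on library 1: without it the mean was 0.83, and without library 2 it was −0.39. Scaled to library totals as RPM, the usual depth-corrected read unit, the median RNR2 peak held at least 168, 701, 2499 and 1873 immunoprecipitated RPM in libraries 1 to 4, against at least 542, 521, 1163 and 897 input RPM. These levels are lower bounds, so only their ratio within a library, and not their order between libraries, is read here.

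The highest folds within RNR2 lay around chrM:2234-2273 of build hg19 in libraries 3 and 4. Library 4 had at least 13882 immunoprecipitated against 3341 input reads at chrM:2234-2269 (log2 fold 2.60), or 9804 against 1620 RPM. In the next peak, at chrM:2270-2273, the log2 fold was 2.72, the highest of that library in RNR2. Library 3 had at least 3777 immunoprecipitated against 1610 input reads at chrM:2235-2271 (log2 fold 2.32), or 4800 against 964 RPM. At the overlapping peaks, libraries 1 and 2 had log2 folds of −1.19 (chrM:2236-2308) and 0.83 (chrM:2253-2270). So the stretch was above input in 3 of 4 libraries and below it in library 1. The lowest RNR2 peak of library 1, at chrM:1897-1910, had at least 117 immunoprecipitated against 2360 input reads (log2 fold −2.67).

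RNR1 held 41 peaks, 12 of them above input. Its median log2 fold was −1.81, −0.13, −0.67 and 0.26 in libraries 1 to 4, a mean of −0.72 ± 0.95 (SD, n = 3), or −0.17 without library 1. The medians of libraries 3 and 4, over 4 and 7 peaks, fell on opposite sides of input. At nearly the same peak, chrM:917-1014 in library 3 and chrM:917-995 in library 4, both libraries were above input. They had 469 and 434 immunoprecipitated RPM and 386 and 190 input RPM there, with log2 folds of 0.28 and 1.20. The bounds differ: library 4 lists an abutting peak at chrM:996-1013 with 158 immunoprecipitated and 81.4 input RPM, over bases that the library 3 peak includes.

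**Figure D3:**
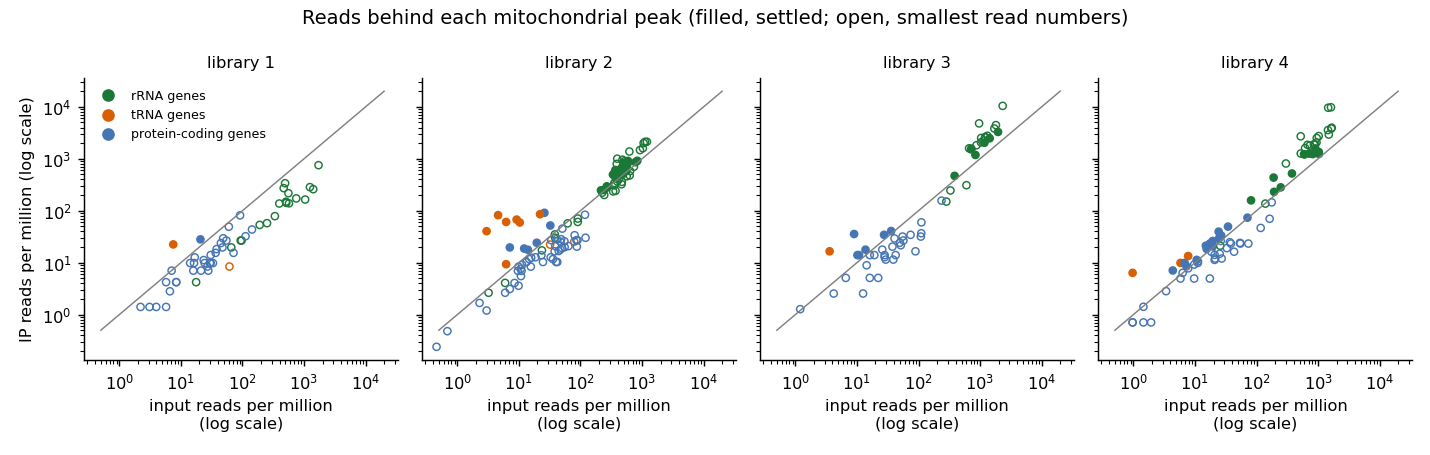
Immunoprecipitated against input RPM for every mitochondrial peak, both on log axes, 1 panel per library. Filled symbols are peaks whose read numbers were settled exactly, open symbols those plotted at the smallest numbers the deposited values allow, and the line marks equal shares. RNR2 peaks lie below the line in library 1 and above it in libraries 3 and 4.

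The second comparison sets the rRNA part against the coding and tRNA part on the plus strand, the sense strand of both rRNAs and of most coding genes. Median log2 folds were −1.86, 0.19, 1.07 and 1.11 in the rRNA part of libraries 1 to 4, against −1.12, −0.90, −0.90 and −0.25 in the coding and tRNA part. The difference was −0.74, 1.09, 1.97 and 1.36, with a mean of 0.67 ± 1.26 (SD, n = 3). The SD was larger than the mean, and library 1 had the opposite sign. The exact two-sided sign-flip permutation test gave p = 0.5. Its smallest possible p was 0.25, so it could not pass 0.05 with these samples. Without library 1 the mean was 1.38. The difference was negative in library 1 and positive in library 2, which share a set, and positive in both libraries of the other set.

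Peaks in the 13 protein-coding genes were mostly below input. All 13 had peaks, 11 of them in all 4 libraries, and 9 had a median below input in every library that lists them. Of the 162 peaks, 30 lay above input, and their median log2 folds were −1.13, −0.91, −0.89 and −0.23 in libraries 1 to 4. The interval lay above 0 for 7 peaks, below 0 for 79 and across it for 76. Read numbers were settled exactly for 27 of the 162, so the median of 20.5 immunoprecipitated reads a peak is a lower bound. Many single folds could not be told from input at these read numbers. How much of this is depth, and how much comes from using the smallest read numbers, was not tested. Every peak in these genes lay on the gene's sense strand.

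The 7 complex I genes encode membrane subunits of NADH dehydrogenase, the entry point for electrons from NADH, and held 77 peaks, 6 of them above input. ND1 had median log2 folds of −0.72, −1.02, −0.81 and −0.12 in libraries 1 to 4, a mean of −0.73 ± 0.28 (SD, n = 3). ND2 had −1.50, −2.03, −1.09 and −0.72, a mean of −1.48 ± 0.56. ND4 varied least, with −0.74, −0.73, −0.60 and −0.79, a mean of −0.72 ± 0.02 once libraries 3 and 4 were averaged. These genes thus stayed below input in every library. ND5 did too, with a mean of −0.99 ± 0.25 (n = 3), and ND4L, with −0.75 ± 0.79 (−0.31 without library 1), reached the input level in library 4. ND3 was listed in libraries 2 and 4 only, with −0.24 and −0.97.

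CYTB, the mitochondrially encoded subunit of complex III, held 16 peaks with a mean of the medians of −0.39 ± 0.12 (SD, n = 3), or −0.22 without library 3. It was below input in libraries 1 to 3 (−0.53, −0.35 and −0.79) and above in library 4 (0.22). Libraries 3 and 4 thus fell on opposite sides of input, and averaging them keeps that spread out of the SD. A single CYTB peak, at chrM:15114-15173 of library 2, had 82 immunoprecipitated against 31 input reads and a log2 fold of 1.46 (−log10 p 6.08). The other 15 lay below a log2 fold of 1.

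The 3 complex IV genes encode the core subunits of cytochrome c oxidase, and 16 of their 52 peaks lay above input. COX1 had the lowest mean of the 3, at −1.27 ± 0.59 (SD, n = 3), with −1.80, −1.37, −0.69 and −0.58 in libraries 1 to 4. COX2 had −0.98, −0.54, −1.06 and −0.60, a mean of −0.78 ± 0.23. COX3 was nearer to input, with −0.72, 0.31, −0.19 and −0.08, a mean of −0.18 ± 0.52. That mean was 0.09 without library 1 and −0.43 without library 2, so its sign rests on library 1. The SDs of COX2 and COX3 overlap, but both genes were read in the same libraries, and COX3 was above COX2 in every library. Their order was not tested.

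The 3′ end of COX3, which borders the TRNG gene, was above input in every library. Library 1 had a log2 fold of 0.43 there from 20 immunoprecipitated and 47 input reads (interval −0.40 to 1.22). Library 2 had 1.81 at chrM:9874-9939, from 381 and 113 reads (interval 1.51 to 2.13). Library 3 had 0.32 from 27 and 46 reads (interval −0.43 to 1.03), and library 4 had 0.71 from 56 and 50 reads (interval 0.13 to 1.29). The direction was the same in all 4, but the intervals of libraries 1 and 3 include 0.

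The ATP synthase genes ATP6 and ATP8 encode membrane subunits of complex V, and 2 of their 17 peaks lay above input. ATP6 was below input in every library, with −0.95, −1.35, −1.51 and −0.68 and a mean of −1.13 ± 0.20 (SD, n = 3). ATP8 was listed in libraries 2, 3 and 4 with 1 peak each, at −1.25, −0.46 and 0.01.

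**Figure D4:**
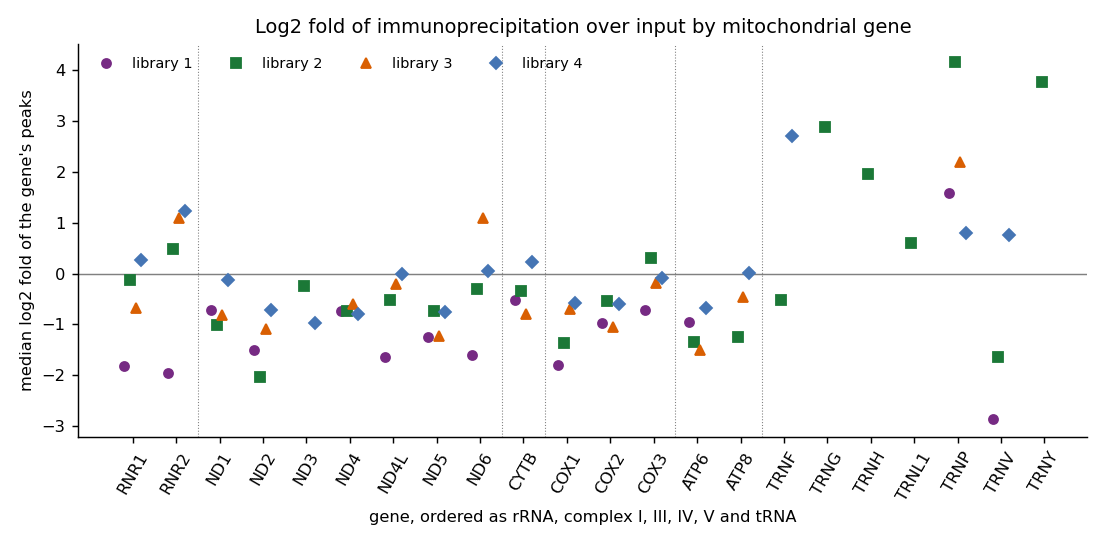
Median log2 fold over input of each mitochondrial gene that holds a peak, 1 symbol per library. Genes are grouped as rRNA, complex I, III, IV, V and tRNA, and are alphabetical within a group, not in genome order. Dotted vertical lines part the groups, and the solid horizontal line marks the input level. RNR2 spans −1.95 to 1.24 between libraries, ND4 spans −0.79 to −0.60, and TRNP lies above input in all 4.

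Mitochondrial tRNAs decode the 13 messages, and they carried the highest folds of the chromosome in libraries 1 and 2. The highest log2 folds of libraries 3 and 4 lay in RNR2, at 2.32 and 2.72. The highest tRNA peaks there had 2.20 (TRNP) and 2.71 (TRNF). Of 22 tRNA genes, 7 had a peak and 15 had none, 4 had peaks in 1 library only, and TRNP alone had one in all 4. Of their 15 peaks, 12 lay above input, with a median log2 fold of 1.96. The interval lay above 0 for 9 peaks, below 0 for 3 and across it for 3. Library 2, the deepest immunoprecipitation with the longest peak list, held most of them, and how far depth sets which tRNAs were listed was not tested.

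TRNP, the proline tRNA, lies on the minus strand and had 1 peak of similar bounds in each library. Library 1 had 16 immunoprecipitated against 17 input reads at chrM:15960-15992, a log2 fold of 1.58 (interval 0.50 to 2.65). Library 2 had 343 against 20 reads at chrM:15959-15994, a log2 fold of 4.16 (interval 3.51 to 4.89), with a −log10 p of 66.4. Library 3 had 13 against 6 reads, a log2 fold of 2.20 (interval 0.71 to 3.88), and library 4 had 19 against 16 reads, a log2 fold of 0.79 (interval −0.25 to 1.85). TRNP was above input in 4 of 4 libraries, with a mean of 2.41 ± 1.52 (SD, n = 3), or 1.54 without library 2, although libraries 3 and 4, counted as 1 sample, were 2.20 and 0.79.

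The other tRNA peaks past a log2 fold of 3 were also in library 2. TRNY, the tyrosine tRNA on the minus strand, had 169 immunoprecipitated against 13 input reads at chrM:5831-5863, a log2 fold of 3.76 (interval 2.95 to 4.70). TRNG, the glycine tRNA, had 3 abutting peaks over chrM:10002-10060 with log2 folds of 3.29, 2.88 and 2.52, and a shift of the gene table by 3 bases gives the last of them to ND3. Both genes were listed in library 2 alone.

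TRNH, the histidine tRNA, had 358 against 96 reads in library 2, a log2 fold of 1.96, and TRNL1, a leucine tRNA, had 39 against 27 reads there, a log2 fold of 0.59 with an interval of −0.15 to 1.36. TRNV, the valine tRNA between the 2 rRNA genes, was at −2.87, −1.64 and 0.77 in libraries 1, 2 and 4, and thus did not share the direction of TRNP. Its peak in library 1 falls to RNR2 under a shift of 3 bases. TRNF, the phenylalanine tRNA before RNR1, held both peaks of the control region, at −0.53 in library 2 and at 2.71 in library 4, where library 4 had 9 immunoprecipitated and 2 input reads.

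**Figure D5:**
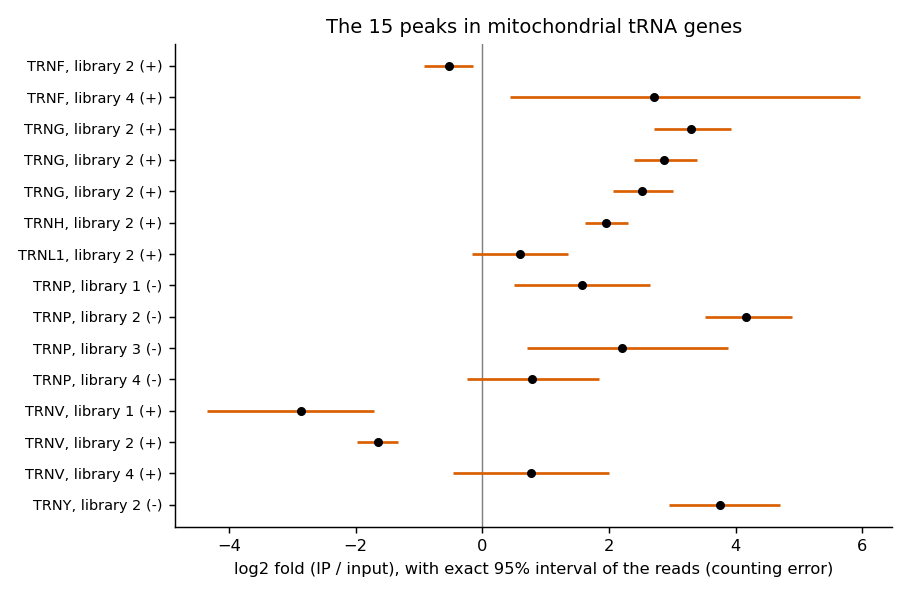
Log2 fold over input of the 15 peaks in tRNA genes, with exact 95% binomial intervals that cover counting error only. The solid vertical line marks the input level. The TRNP peaks of all 4 libraries lie at 0.79 to 4.16, and the 3 peaks whose intervals lie wholly below input belong to TRNV and TRNF.

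Only 11 of the 309 peaks were on the minus strand, with 2, 4, 3 and 2 in libraries 1 to 4, and each lay on the sense strand of its gene. They comprise the 4 TRNP peaks, the TRNY peak and 6 peaks in ND6, the only protein-coding gene of that strand and a complex I subunit. ND6 was at −1.60 in library 1, from 5 immunoprecipitated and 48 input reads at chrM:14360-14439. In library 2 both of its peaks, at chrM:14254-14291 and chrM:14326-14441, were at −0.31, from 38 against 49 reads and from 113 against 146 reads. Library 3 had 1.99 at chrM:14263-14312, from 28 against 15 reads (−log10 p 5.14), and 0.18 at chrM:14347-14413, from 32 against 60 reads. Library 4 had 0.04 at chrM:14274-14421 from 104 against 147 reads. The mean of −0.45 ± 1.09 (SD, n = 3) lies within the spread of the samples and was 0.13 without library 1 and −0.27 without library 4, so no direction holds for ND6.

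Merging peaks that share at least 1 base on the same strand gave 93 loci, of which 34, 25, 13 and 21 were listed in 1, 2, 3 and 4 libraries. Without library 1, 32 loci were listed in all of the remaining 3. Of the 21 loci in all libraries, 6 lay in the rRNA part and 15 in the coding and tRNA part. Only 2 were above input in all 4 libraries, TRNP and the COX3 end, and 8 were below input in all 4, every one in the coding and tRNA part. The COX3 locus at chrM:9830-9939 had a mean of 0.77 ± 0.51 (SD, n = 3). The loci next in order lay in RNR2, at chrM:2234-2463 (0.13 ± 1.70), chrM:2062-2139 (−0.10 ± 1.55) and chrM:1822-1911 (−0.14 ± 1.89), and in each library 1 was below input and the other 3 above it.

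The 5 lowest of these loci had SDs of 0.16 to 0.56, against 1.55 to 1.89 in the 3 RNR2 loci. In COX1 they were chrM:7191-7258 (−1.64 ± 0.35, n = 3) and chrM:6334-6595 (−1.62 ± 0.36). The others were chrM:11958-12094 in ND4 (−1.61 ± 0.16), chrM:5294-5420 in ND2 (−1.59 ± 0.56) and chrM:9018-9108 in ATP6 (−1.48 ± 0.29). All 5 were below input in 4 of 4 libraries, and neighbours in this order do not differ beyond their spread.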

How the data were processed

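The authors deposited 1 list of input-normalized peaks per eCLIP library, with a −log10 p-value and a log2 fold over the matched input. The build is hg19, per the submitters' processing notes; the sources used here name neither the aligner nor the peak caller. In the deposited lists, peaks with a log2 fold below 0 carry a −log10 p of 0, and the highest values end at a ceiling of 400.

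Library totals and peak reads were solved from the log2 folds, as ratios of whole reads, and from the −log10 p, as a chi-square test with continuity correction or Fisher's exact test below 5 reads. The recovery of exact read numbers was tested on simulated data. The simulated peaks tested were not below input and had a −log10 p short of the ceiling. The smallest read numbers, used where no exact ones could be settled, were thus not tested. Peaks were given the gene at their midpoint from RefSeq GRCh38.p14, whose mitochondrial reference can differ from that of hg19 by a few bases; 307 of 309 peaks kept their gene under shifts of 3 bases.

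Samples were compared by exact sign-flip permutation tests (Python 3.11.15, numpy 2.4.6, pandas 2.3.3, scipy 1.17.1, matplotlib 3.10.9). Alternatives varied peak width, overlap, thresholds, weighting, containment and the libraries used. The members and lists were chosen with earlier results of these data known. Named with values are both rRNA genes, protein-coding genes with peaks in at least 2 libraries, all minus-strand peaks, peaks past both strict thresholds and, among loci in all 4 libraries, the 5 highest and 5 lowest. Other single peaks and tRNA genes were picked after their values were seen.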

Additional observations from a re-analysis of the deposited data

Results flagged for a closer look

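Over the 4 libraries, 45 quantities were examined for a library that stands apart (Dixon's gap over range), and chance alone gives about 2.25 such cases. It was met by 2. The RNR2 locus at chrM:1822-1911 had log2 folds of −2.31, 0.71, 1.21 and 1.15 in libraries 1 to 4, and the gap between library 1 and the nearest other library was 0.859 of the range. The ND4 locus at chrM:11958-12094 had −1.71, −1.69, −1.67 and −1.19, and library 4 stood apart with a gap of 0.914 of the range.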

How the results depend on the processing

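No paired analysis was possible because no fit of eCLIP against input libraries with and without a block can be made: each deposited fold already sets an eCLIP library against its own input, and the recovered input reads come from those same folds. Leaving out each library in turn gave mitochondrial minus nuclear differences of −66.7 to −40.7 percentage points above input and −3.51 to −1.82 in median log2 fold, and a difference between the rRNA part and the coding part of 0.46 to 1.38. With libraries 3 and 4 kept apart these 3 were −53.7, −2.67 and 0.92 (exact permutation p = 0.125, 0.125 and 0.25; the smallest that 4 allow is 0.125). Lowering the fold threshold to a log2 fold of 1 took the mitochondrial peaks past both thresholds to 44, against 3. Loci listed in at least 3 of 4 libraries numbered 34, against 21 in all 4; leaving out a library gave 21 to 32, with 32 without library 1. Limiting peaks to at least 20 immunoprecipitated reads, added after seeing the data, moved the median difference to −4.56. That limit acts on the numerator of the fold, so it is no check on depth. Joining abutting peaks, also added afterwards, gave 0.51 for the rRNA part minus the coding part. The 3 differences between groups of peaks kept their sign under every alternative run for them. Leaving out library 1 turned the sign of the gene means of RNR2 (0.83, against −0.10), COX3 (0.09, against −0.18) and ND6 (0.13, against −0.45), each within 1 SD. It also took TRNV to −0.44, against −1.25, as did raising positions by 3 bases, and TRNV was −2.25 without library 4. Of 105 alternatives over 15 genes, 4 moved by more than 1 SD, in CYTB and ND4. Low read numbers, lower bounds for many peaks, limit single folds in libraries 1, 3 and 4.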
